A study of Saccharomyces cerevisiae with 32 samples.

Results

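The peptide library described here held the wild-type CRIPT ligand, KNYKQTSV, and variants of it with substitutions or stop codons at 1 or 2 of its 8 positions. Its members were all sequences of the deposited table of this library, sorted by the number of residues that differed from wild type. They numbered 9475 of the 470640 sequences in the series. They comprised the wild type, 151 of the 152 possible single substitutions (V8Y was not listed), 8449 of the 10108 possible double substitutions (83.6%) and 874 variants with at least 1 stop codon, 8 of them single stops.

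The study used a yeast protein complementation assay, read out as growth, to measure variants of the third PDZ domain of the scaffold protein PSD95 and of CRIPT, a peptide ligand of that domain. The strain was Saccharomyces cerevisiae BY4741, a laboratory strain, transformed with the library in biological triplicate and kept in medium without uracil and adenine to hold the plasmids. The 3 input samples of this library were grown for 5 generations without drug, and the 3 output samples were grown on from them for about 5 generations in the same medium with 200 µg/mL methotrexate. The authors merged the replicates into 1 score and 1 error per peptide, so values below are that score ± the authors' error, with no replicate spread, and the depth behind each score is unknown.

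As background, PDZ domains are protein interaction modules that bind the free C-terminal end of their partners, which adds a strand to a sheet of the domain. In ligands of class I the last residue is hydrophobic and sits in a pocket next to the loop that holds the C-terminal carboxylate, and the residue 2 places before it is serine or threonine and contacts a histidine of the domain. In this kind of assay the binding partners carry fragments of a methotrexate-resistant dihydrofolate reductase, so growth in the drug depends on the complex and also on the amount of the fusion proteins. Positions are counted here from 1 at the first listed residue, so that V8 is ligand position 0, S7 is -1, T6 is -2, Q5 is -3 and K4 is -4.

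The peptides on which the results turn are printed in lower case with the substituted residues in capitals, and the wild type in capitals throughout. The first set are changes at the residues of the class I motif, the next set are peptides that scored above wild type, and the last set are single substitutions and the pairs made of them.
wild type: KNYKQTSV
T6S: knykqSsv
V8C: knykqtsC
V8I: knykqtsI
V8L: knykqtsL
Q5E: knykEtsv
Y3W: knWkqtsv
N2K+Q5E: kKykEtsv
Y3R+Q5E: knRkEtsv
Q5G: knykGtsv
Y3D: knDkqtsv
Y3E: knEkqtsv
Y3D+Q5G: knDkGtsv
Y3E+Q5G: knEkGtsv
Q5R: knykRtsv
S7W: knykqtWv
Q5R+S7W: knykRtWv

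The wild type scored 0.0314 ± 0.0140. The stop variants, in which the ligand is cut short and the motif residues are lost, had a median of -0.893 and ranged from -1.47 to 0.000753. This median is called the stop level below, and the distance from wild type to it is the range of the readout. A stop at any of the 8 positions lowered the score, with single stops between -0.968 ± 0.0325 at N2 and -0.754 ± 0.0286 at Y3. The loss of V8 alone gave -0.768 ± 0.0825.

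The stop variants also measured how far the authors' errors cover the scatter between peptides that should behave alike. The root mean square deviation of the stop variants from their median was 1.77 of their own errors. It was 2.85 for the 34 stops with errors up to 0.05 and 1.04 for the 181 with errors above 0.2. Median scores differed with the error as well, from -0.823 for the 287 stops with errors between 0.05 and 0.1 to -1.15 for those above 0.2. The main counts below are therefore also given with all errors multiplied by 1.77, called the larger errors. This factor is below the 2.85 of stops with errors up to 0.05. A call that was kept for a peptide with so small an error was not tested at the higher factor.

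Most of the library scored below wild type. By the difference of scores over the combined error, with a two-sided normal p adjusted over the whole table by the Benjamini-Hochberg method and a threshold of 0.05, 89.3% of the 9474 variants were below wild type and 0.179% were above it. The normal p takes the authors' errors as known, although they rest on 3 replicates, so calls are given here with each difference and its error rather than with p-values. Among the single substitutions 125 were below, 2 were above and 24 did not pass the test. Of the 8600 variants without a stop, 62% lay above the stop level, among them 131 of the 151 singles, and 0.767% (66) lay below it. Under the larger errors 3 variants were above wild type and 1 was below the stop level. By the same limit 16.1% of the stop variants themselves lay above their own median and 1.83% below it, so a call near the stop level for a single peptide has that background. The single substitutions had a median score of -0.174 and a median error of 0.0226. The doubles had a median of -0.550 and a larger median error, 0.0743.

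The positions of the class I motif tolerated the fewest residues. At T6 all 19 substitutions fell below wild type, and the median kept 8.53% of the range between the stop level and wild type. T6S, the other residue of the class I motif, scored -0.161 ± 0.0168, or 79.2% of the range. No other residue at T6 came near it. T6I, at -0.581 ± 0.0443, was the next highest and T6H, at -0.719 ± 0.0390, followed. T6C (-0.741 ± 0.0366), T6V (-0.779 ± 0.0262) and T6A (-0.781 ± 0.0242) also passed the test above the stop level. That level is the median of all stops, whereas stops with errors up to 0.05, like these, had a median of -0.826. The single stop at Y3, at -0.754 ± 0.0286, scored above T6V and T6A, so these calls do not set them apart from stops of like error. T6Q (-0.784), T6G (-0.811), T6Y (-0.779) and T6E (-0.814) passed it only with the errors as deposited. The 9 others did not differ from the stop level or, for T6N at -1.06 ± 0.0767, lay below it, a call that was lost with the larger errors. T6P, the second lowest, scored -0.942 ± 0.0315.

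At V8, the C-terminal residue, 16 of 18 listed substitutions were below wild type and the median kept 10.9% of the range. The 3 highest were V8C at -0.0207 ± 0.0734, V8I at -0.0923 ± 0.124 and V8L at -0.267 ± 0.0297. V8C and V8I did not differ from wild type by this test, and their errors are large. They were also measured in the C-terminal library of the study, which varied positions 5 to 8. There V8C scored -0.0742 ± 0.0609 and V8I -0.191 ± 0.0501. In the PDZ3-CRIPT library, whose table lists the CRIPT single substitutions in 2 separate listings, V8C scored -0.0939 and -0.117 and V8I -0.192 and -0.184, with errors of at most 0.00452. The values from other libraries are scores, not differences from the wild type of each library. V8M, the remaining aliphatic residue, scored -0.757 ± 0.128 and did not differ from the stop level here, whereas it stood at -0.550 ± 0.0498 in the C-terminal library. V8F (-0.599 ± 0.102), V8A (-0.774 ± 0.0397), V8G (-0.813 ± 0.0340) and V8E (-0.784 ± 0.0474) passed above the stop level only with the errors as deposited. The lowest scores were V8H at -1.20 ± 0.191 and V8K at -0.959 ± 0.149, neither of which differed from the stop level.

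S7, the residue between them whose side chain class I ligands leave free to vary, kept a median of 71.0% of the range, although 18 of its 19 substitutions were below wild type. S7R, at 0.0308 ± 0.0183, was the exception and lay next to wild type. S7P came second at -0.0345 ± 0.0211 and S7E followed at -0.0391 ± 0.0232. The lowest were S7D at -0.559 ± 0.0388 and S7I at -0.504 ± 0.0520. The acidic residues were thus far apart at S7, with D the lowest of all substitutions and E the third highest. The polar residues scored -0.0497 (S7T), -0.0678 (S7Q) and -0.251 (S7N).

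Q5 was the position with the widest spread among those outside the motif. Its scores ran from Q5P at -0.742 ± 0.0238 and Q5L at -0.521 ± 0.0180 up to Q5V at 0.0159 ± 0.0178 and Q5E at 0.165 ± 0.0197. Its acidic residues were also far apart, with Q5D at -0.415 ± 0.0236. Among aliphatic residues Q5V and Q5I (-0.0992) lay high, Q5M (-0.174) lay lower and Q5L lay lowest. The polar residues ranged from Q5T at -0.00217 through Q5S at -0.0455 to Q5N at -0.187.

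At K4, 18 of 19 substitutions fell below wild type and the median kept 62.1% of the range, the lowest of the positions outside the motif. K4R, which keeps the positive charge, scored 0.00631 ± 0.0150. Histidine did not stand in for lysine in the same way, with K4H at -0.279 ± 0.0245 below K4Q at -0.152 ± 0.0192, the second highest. The lowest were K4W at -0.566 ± 0.0227 and K4G at -0.558 ± 0.0187.

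At Y3 an aromatic residue kept or raised the score. Y3W scored 0.0998 ± 0.0200 and was called above wild type, Y3F scored 0.0286 ± 0.0224, and Y3H scored 0.0172 ± 0.0219. The acidic residues Y3E (-0.359 ± 0.0213) and Y3D (-0.358 ± 0.0234) lay far below the rest of the position, whose next lowest member was Y3G at -0.156. The median at Y3 kept 88.1% of the range.

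The first 2 residues were the least sensitive. K1 kept a median of 89.6% of the range, from K1D at -0.209 ± 0.0233 and K1E at -0.178 ± 0.0209 to K1G at -0.0236 ± 0.0164 and K1R at 0.0137 ± 0.0164. K1H lay at -0.0448. N2 kept 98.3%, and 4 of its 19 substitutions (N2W, N2D, N2Y and N2L) were below wild type. N2W (-0.0433 ± 0.0205) and N2D (-0.0331 ± 0.0217) were the lowest. N2R (0.0503 ± 0.0155) and N2K (0.0689 ± 0.0190) were the highest, and neither passed the test above wild type. N2Q, N2T and N2S lay between 0.0218 and 0.0498.

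Residue classes were compared at each position by the difference of class means with propagated errors, 4 contrasts at 8 positions. These errors cover the measurement of the listed substitutions only, since substitutions within a class are not replicates. Of the 32 contrasts 84.4% passed the threshold, so the size and the overlap of the ranges say more than the call. With errors multiplied by 1.77, 8 of them were lost: hydrophobic minus polar at K1 and N2, basic minus acidic at N2, aromatic minus aliphatic at N2, T6, S7 and V8, and glycine and proline at V8.

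Charge separated the residues without overlap at 4 positions. Its classes held only 2 or 3 residues, and ranges of so few residues stay apart more readily. The number was therefore not compared between contrasts. Basic residues scored higher than acidic ones at K1 by 0.178 ± 0.0214, at N2 by 0.0568 ± 0.0185, at Y3 by 0.338 ± 0.0194, at K4 by 0.308 ± 0.0218 and at S7 by 0.183 ± 0.0280. At the first 4 positions the basic and acidic residues did not overlap in score. The gap at N2 was smaller than the errors, with N2H at 0.0257 ± 0.0253 and N2E at 0.0160 ± 0.0187. Q5 ran the other way, with basic residues lower by -0.109 ± 0.0195, and there the acidic mean joins the high Q5E and the low Q5D. At T6 and V8 the contrast did not pass.

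Aromatic residues scored above aliphatic ones at Y3 by 0.144 ± 0.0179 and at S7 by 0.0724 ± 0.0257. They scored below them at K4 (-0.214 ± 0.0177), V8 (-0.315 ± 0.0851), K1 (-0.0839 ± 0.0172), T6 (-0.0763 ± 0.0335) and N2 (-0.0542 ± 0.0161). The ranges were apart at K1, Y3 and K4. Hydrophobic residues scored above polar ones at V8 by 0.367 ± 0.0541, with no overlap, and at Y3 by 0.0801 ± 0.0123. The gap at V8 was smaller than the errors, with V8W at -0.775 ± 0.0646 and V8Q, the highest polar residue, at -0.792 ± 0.0553. V8M and V8A lay near V8W, and the high hydrophobic scores there were those of V8C, V8I and V8L. At the other 6 positions they scored lower. At T6 that difference, -0.127 ± 0.0309, is set by T6S alone among 3 polar residues, and with class medians in place of means it was 0.00311.

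Glycine and proline, which change how the backbone can bend, scored lower than the other residues at Q5 by -0.412 ± 0.0157 and at K4 by -0.110 ± 0.0144. At S7 (0.0866 ± 0.0166) and K1 (0.0566 ± 0.0141) they scored higher than the mean of the others. At T6 (-0.0879 ± 0.0220) and V8 (-0.133 ± 0.0407) they scored lower as well, and at N2 and Y3 the contrast did not pass. The mean of the others includes the high T6S at T6, and the high V8C, V8I and V8L at V8. Against position medians of -0.814 at T6 and -0.793 at V8, glycine and proline averaged -0.876 and -0.844. Both residues were low at Q5, whereas at K4 glycine was low and proline, at -0.277, was not far from the position's median of -0.319.

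Substitutions that raised the score were rare. Q5E scored above wild type by 0.134, and this call was kept with errors multiplied by 1.77. Its error, 0.0197, is in the range where stop variants spread by 2.85 errors, and that factor was not tried. Y3W scored above wild type by 0.0684 and passed with the deposited errors only. Q5E stood at 0.0610 ± 0.0592 in the C-terminal library and at 0.127 and 0.116 in the 2 PDZ3-CRIPT listings. Y3W stood at 0.0658 and 0.0597 in the same listings. These are scores in each library, not differences from its own wild type.

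The doubles show how far such gains carried over to peptides that already held another substitution. For each double the score was compared with that of each of its singles, which gave 16866 comparisons. Of these, 2.14% were raised by the added substitution and 50.4% were lowered. Of the 361 raised scores, 245 were in backgrounds whose single lay below 50% of the stop level (-0.447) and 116 in backgrounds above it. Under the larger errors 43 scores were raised and 4856 lowered.

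Q5E raised the score in more backgrounds than any other substitution, 74 of 120, and its effect was positive in 112. The median effect over all its backgrounds was 0.161, against 0.134 in the wild-type peptide. By the position of the background substitution, Q5E raised the score of all 19 K4 variants, 15 of 19 Y3 variants, 11 of 19 N2 variants, 11 of 16 S7 variants and 8 of 18 K1 variants. In K4 backgrounds its median effect was 0.222 and its lowest 0.0970. In backgrounds at the motif residues T6 and V8 it raised 8 of 18 and 2 of 11. K1F was the one background in which it was called lower, a call lost under the larger errors. With errors multiplied by 1.77 the number of raised backgrounds was 23.

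Y3W and N2K came next, with 24 of 126 and 18 of 124 backgrounds raised and none lowered. With the larger errors 1 and 2 of these calls were kept. In backgrounds above 50% of the stop level, Q5E, Y3W and N2K made 60, 18 and 12 of the 116 raised scores. N2R, the other basic residue that was high at this position, also made 12. Over all its 129 backgrounds N2R raised 14 and lowered 2.

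All 15 doubles called above wild type carried Q5E. The 5 highest were N2K+Q5E at 0.198 ± 0.0410, Y3R+Q5E at 0.191 ± 0.0346, Y3H+Q5E at 0.165 ± 0.0512, N2I+Q5E at 0.163 ± 0.0501 and N2R+Q5E at 0.161 ± 0.0327. None of these 5 departed from the expectation from its singles that is described next. Only N2K+Q5E and Y3R+Q5E kept the call with errors multiplied by 1.77.

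For 8433 doubles with both singles listed, the score was compared with an expectation. This was a monotonic (isotonic) curve of double score on a sum, the wild-type score plus the effects of the 2 singles. The scores followed the sum at small effects, fell below it at intermediate sums and levelled off near the stop level. Doubles with sums between -0.25 and 0.3 had a median sum of -0.124 and a median score of -0.122. For sums between -0.5 and -0.25 the medians were -0.367 and -0.410, with a median expectation of -0.427. For sums between -0.75 and -0.5 the medians were -0.603 and -0.666. For sums between -1 and -0.75 they were -0.883 and -0.870. Beyond that the scores fell less than the sums, with a median of -0.933 at a median sum of -1.14 and of -0.954 at a median sum of -1.67.

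Against this curve 2.62% of doubles were called above and 0.166% below, that is 221 and 14 of 8433. With errors multiplied by 1.77, 11 were above and 0 below. The direction also depended on how the expectation was built. With the product of the 2 distances above the stop level in place of the curve, 136 doubles were above and 397 below. Doubles whose singles both lay above 50% of the stop level numbered 4776, and 59 of them were above the curve and 10 below. The other 3657 gave 162 calls above, or 4.43% of them. By the same limit, 3.20 errors, 8.24% of the stop variants lay above their own median and 0.114% below it. These shares are not measured alike and were not ranked. Deviations of doubles were taken from a curve fitted to them and divided by the combined error, those of stops by their own error. Of the doubles with a damaging single, 2 were off the curve under the larger errors. Among single substitutions of this kind K4G, at -0.558, had the most doubles above the curve, 13 of 128.

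The 5 doubles farthest above the curve were of that kind. S7M+V8Q scored -0.168 ± 0.139 against an expectation of -0.927, and the others were Y3C+T6Y, T6P+V8K, K1W+V8D and Q5A+V8W, at -0.158, -0.252, -0.215 and -0.226. Of these, S7M+V8Q, T6P+V8K and Q5A+V8W were also listed in the C-terminal library, at -1.06, -0.954 and -1.09. The 5 farthest below were K1F+Q5E (-0.424 ± 0.108, expected -0.0125), Q5C+S7K (-0.534 ± 0.0832, expected -0.152), Q5V+T6G (-1.20 ± 0.0952, expected -0.855), K4I+Q5C (-0.676 ± 0.0687, expected -0.372) and T6I+S7R (-0.951 ± 0.0740, expected -0.661). None of these 10 kept the call with errors multiplied by 1.77.

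By distance along the peptide, the share of doubles off the curve in either direction, 2.79% over all distances, showed no steady course. It was 3.11% for neighbouring positions (69 of 2216), 3.70% at distance 2, 2.47% at 3, 1.65% at 4, 3.12% at 5, 0.986% at 6 and 3.07% at 7. Under the larger errors 2 doubles remained off the curve at distance 1, 8 at distance 2, 1 at distance 5 and 0 at the others. The distances do not hold the same positions, and T6 and V8 weigh differently in each. Median scores ran from -0.432 at distance 2 to -0.913 at distance 7, where the only pair is K1 with V8 and 46.0% of the possible doubles were listed. The median combined error was 0.0745 at distance 1 and 0.197 at distance 7.

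Among doubles with both singles above 50% of the stop level the near pairs had the larger shares. There 19 of 1318 (1.44%) were off the curve at distance 1 and 37 of 1224 (3.02%) at distance 2. The shares were 0.548% at distance 3, 0.943% at 4, 0.289% at 5 and 0.318% at 6, and none of the 25 doubles at distance 7 was called. Under the larger errors 1 double at distance 1 and 8 at distance 2 were off the curve, and 0 at every other distance. Without the doubles of Q5G the shares at distances 1 and 2 were 0.999% and 1.68%, and under the larger errors 0 doubles and 1 double were left. The typical deviation did not follow distance in the same way. Its median size was 0.714 combined errors at distance 1, 0.854 at distance 2, 0.706 at distance 3 and 0.772 at distance 6. No test was made over distances, because the 28 position pairs share their positions.

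Among position pairs the largest share off the curve was that of Y3 with Q5, 26 of 351 (7.41%), all above. It was followed by Q5 with T6, 19 of 335 (5.67%), and Q5 with V8, 11 of 197 (5.58%). Under the larger errors these became 7, 0 and 0. In the last 2 pairs none of the 17 and 18 doubles with both singles above 50% of the stop level was off the curve, whereas for Y3 with Q5 it was 21 of 313. The smallest shares were 0 of 347 for K1 with N2, 1 of 353 for N2 with K4 (0.283%) and 1 of 334 for Y3 with S7 (0.299%).

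The calls at Y3 with Q5 came mostly from 1 residue, glycine at position 5. Of the 19 doubles of Q5G with a Y3 substitution 15 lay above the curve, 7 of them also with errors multiplied by 1.77. Of the other 332 doubles of this position pair 11 did, and none with the larger errors. Over all positions 28 of 128 Q5G doubles (21.9%) were above the curve, more than for any other substitution, and 8 were under the larger errors.

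The Q5G peptide scored -0.420 ± 0.0175, and adding a Y3 substitution to it did not lower the score further. The single substitutions Y3D and Y3E, the most damaging at their position, scored -0.358 ± 0.0234 and -0.359 ± 0.0213 alone. Y3D+Q5G scored -0.339 ± 0.0439 and Y3E+Q5G -0.355 ± 0.0327, where the curve gave -0.855 for each. Each of these doubles thus lay beside its singles. Over the 19 substitutions the mean effect of a change at Y3 was -0.135 ± 0.00459 in the wild-type peptide and 0.0624 ± 0.0081 in the Q5G peptide. These errors leave out that of the wild-type or Q5G score, which all 19 effects share. The error of the difference tested below includes it. In Q5G 16 of the 19 effects were positive, and Y3P, Y3Q, Y3V, Y3G, Y3W and Y3A were called raised and none lowered. Of these calls Y3P was kept under the larger errors. In the wild-type peptide 1 was positive, that of Y3W. Y3P+Q5G had the highest score, -0.245 ± 0.0352, and Y3F+Q5G the lowest, -0.502 ± 0.0574. Y3F, which keeps the aromatic ring, was thus the lowest of the position in Q5G and the second highest in the wild-type peptide. Its effect in Q5G, -0.0823, was not called, and the change of rank was not tested.

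The mean effect of each position was compared in the same way between the wild-type peptide and every single-substitution background above 50% of the stop level with at least 10 doubles, 714 tests in all. In 5.88% of them the mean effect was higher in the background and in 8.68% it was lower, that is 42 and 62 tests. Under the larger errors 11 and 0 of these were called. For Y3 the difference in Q5G was 0.197 ± 0.0243, which also passed with errors multiplied by 1.77. It was the only one of 91 backgrounds in which Y3 substitutions were called less damaging, and 6 others were called more damaging, none of them under the larger errors. The calls toward less damage were otherwise mostly for T6 (29 of 108 backgrounds, and 10 under the larger errors) and V8 (9 of 59, and 0 under the larger errors), whose single substitutions mostly lie near the stop level.

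Other positions did not all follow Y3 in the Q5G peptide. The mean effect at N2 was -0.0174 in wild type and -0.0425 in Q5G, and at K1 it was -0.113 and -0.0905, with neither difference called (-0.0251 ± 0.0247 and 0.0223 ± 0.0272). At S7 it was -0.244 and -0.215, a difference of 0.0297 ± 0.0292 that did not pass. At K4 it was -0.351 and -0.237, a difference of 0.114 ± 0.0247 that passed with the deposited errors and not with the larger ones. Among the other residues at Q5, proline came closest. In Q5P, which scored -0.742 and was too near the stop level to be among the 714 tests, the mean effect of the Y3 substitutions was -0.0145 ± 0.0157, with 7 of 19 positive. This error leaves out that of the Q5P score, 0.0238. In the remaining 17 backgrounds at Q5 the mean effect was negative, from -0.226 in Q5K to -0.0901 in Q5E. It was -0.131 in Q5D, whose score of -0.415 is close to that of Q5G.

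Away from Q5G, 32 of 4684 doubles with both singles above 50% of the stop level were above the curve and 10 below, and 1 of these, Q5R+S7W, was kept with errors multiplied by 1.77. It scored -0.338 ± 0.0373, while Q5R alone scored -0.323 ± 0.0154 and S7W alone -0.407 ± 0.0269. In this pair a second substitution cost little, as in the pairs of Q5G with Y3.

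The C-terminal library gave a second measurement of some of these pairs. Of the doubles called above the curve with both singles above 50% of the stop level, 7 were listed there. For 5 of them both singles were listed as well, and these 5 also lay above the curve of that library, by a median of 0.383 there and 0.313 here. They were Q5R+S7W (-0.374 there), Q5S+S7W (-0.2505 here, -0.199 there), Q5N+S7W (-0.323 here, -0.159 there), Q5G+S7P (-0.258 here, -0.263 there) and Q5R+S7L (-0.520 here, -0.567 there). None of the 5 passed the threshold in that library by itself. S7W and Q5R recur among them, so the 5 are not independent. The other 2 had no expectation there, because S7M and S7V were not among its singles. Q5R+S7M scored -0.486 here and -0.568 there. Q5D+S7V scored -0.447 ± 0.0825 here and -0.783 ± 0.0563 there, which is close to the -0.785 that the curve gave here. Of the 39 shared doubles called above the curve with a single below 50% of the stop level, 21 were positive there, with a median score of -0.953 there against -0.561 here. Over all 1021 shared doubles with an expectation there, 466 were positive, and the deviations of the 2 libraries had a Pearson correlation of 0.143. In the N-terminal library, which varied positions 1 to 4, 6 doubles called above the curve here had an expectation, and none was called there. Of these 6, 5 were positive there, as were 132 of all 248 shared doubles. The median deviation of the 6 was 0.0590 there and 0.185 here. The deviation of K1V+K4G was 0.287 here and -0.162 there. The Y3 pairs of Q5G span both of the libraries that varied 4 positions each, so they had no second measurement there.

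Over all peptides shared with those libraries, 3.15% of 2289 differed in score between libraries. With the C-terminal library 58 of 1321 were higher here and 0 lower, and with the N-terminal library, which varied positions 1 to 4, 2 of 968 were higher and 12 lower. With errors multiplied by 1.77 no shared peptide differed.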

How the data were processed

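Amplicons of plasmid DNA from input and output yeast were sequenced, and the authors deposited for each peptide a fitness score and its error, also on the score scale, per the file headers. The submitters' processing notes list cutadapt, FastQC and GRCh38 without a role. The scoring tool, log base, count filter and kind of error are not given in the sources used here. Replicates were merged by the authors, so samples could not be fitted. Per the labels, some read files of the input samples also held reads of other samples and were sorted by amplicon.

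Computed here, with Python 3.11.15, pandas 2.3.3, NumPy 2.4.6, SciPy 1.17.1 and scikit-learn 1.9.0, were score differences over combined errors, two-sided normal p-values, Benjamini-Hochberg adjustment over the whole table (threshold 0.05), class contrasts, an isotonic curve for doubles and comparisons with the other libraries. The 16 doubles with V8Y, which has no single score, were not tested against the curve. All comparisons with wild type share its 1 value. Scripts were tested on simulated data. Classes were basic K, R and H; acidic D and E; aromatic F, W and Y; aliphatic V, I, L and M; polar S, T, N and Q; hydrophobic A, C and the aliphatic and aromatic residues. Contrasts left out the wild-type residue. Position effects in backgrounds, and peptides of the Q5G and S7W sets, were chosen after the data were seen.

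Peptides were named by rule: at each position the 2 highest and 2 lowest singles and those of the wild-type class, all singles above wild type, those at T6 and V8 above the stop level, the 5 highest doubles, the 5 farthest off the curve each way, the 3 substitutions that raised most backgrounds, and the 3 position pairs with the largest and smallest shares off the curve. The members, lists and tests were chosen with earlier results of these data known.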

Additional observations from a re-analysis of the deposited data

How the results depend on the processing

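No paired analysis was possible because the deposited scores are merged over replicates, and for the same reason no replicate could be left out. The missing depth and the stop variants' spread limit every call near the stop level. Q5E kept its direction and call under each alternative run for it. The difference between hydrophobic and polar residues at T6 turned, to 0.00311, with class medians. At a threshold of 0.01, 6 variants were above wild type, 20 below the stop level, 120 doubles above and 5 below the curve, 204 effects raised and 35 shared peptides different. With the 50% of variants of lower error these were 4161 below wild type, 154 below the stop level, 61 above and 31 below the curve, 221 effects raised, 4830 lowered and 34 shared peptides different; here fewer peptides were tested. Off-curve shares there were 2.23% at distance 1, 2.60% at 2, 0% at 6 and 0% at 7. With errors multiplied by 1.77, 3 variants were above wild type, 1 below the stop level, 11 doubles above and 0 below the curve, 43 effects raised, 4856 lowered and 0 shared peptides different. With 0 in place of wild type, 40 variants were above.

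The plain sum, which has no floor, gave 777 doubles above and 152 below, with 12.4%, 16.5%, 10.3%, 6.86% and 8.66% off at distances 1 to 5 and 7.36% at 7. The product gave 136 above and 397 below, with 8.62%, 5.39%, 8.18% and 5.29% at distances 1 to 4 and 2.96% at 6; the cause was not tested. Without T6 and V8 the shares were 2.35% at distance 1, 1.24% at 3, 0.752% at 4 and 0.940% at 5. With both singles above 50% of the stop level they were 1.44%, 0.548%, 0.943%, 0.289%, 0.318% and 0% at distances 1 and 3 to 7. With the difference of medians between libraries removed, 47 shared peptides differed. Alternatives chosen after seeing the data gave 82 above and 32 below for a curve weighted by error, 324 above and 15 below with the singles' errors scaled by the slope of the curve, 59 above for doubles and 116 raised for backgrounds above 50% of the stop level. Without Q5G as well, the shares were 0.999%, 1.68%, 0.448%, 0.486%, 0.289%, 0.318% and 0% at distances 1 to 7.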
